A study of Mus musculus with 6 samples.

Results

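The matrix metalloproteinase (Mmp), Adam, Adamts and tissue inhibitor of metalloproteinases (Timp) genes were read in mouse embryonic fibroblasts (MEF) on day 3 of reprogramming, with and without Rnf20. The genes were taken by symbol, as every row of the count table named Mmp with a number, Adam with a number, Adamts with a number, or Timp1 to Timp4. This gave 62 of 16982 genes, of which 20 were Mmp, 19 Adam, 19 Adamts and 4 Timp genes. The 6 libraries were 3 of wild type (WT) cells and 3 of Rnf20-/- cells (knockout), both labelled as C57BL/6, as reprogrammable cells and as untreated. Both groups were MEF infected with retroviral OCT4, SOX2, C-MYC and KLF4 (OSKM). According to the methods, the knockout cells carried floxed Rnf20 alleles and a ubiquitously expressed, tamoxifen-inducible Cre, and Rnf20 was deleted with 4-OH tamoxifen. Whether the WT cultures carried Cre or received the drug is not given in the sources used here. The methods place infected cells on mitomycin-C-treated MEF feeders on the second day after infection, and RNA of feeders was not separated here. The labels do not say whether the 3 libraries of a group came from separate embryos, so p-values measure the spread between these libraries.

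Metalloproteinases of these families are made as inactive precursors and cut the extracellular matrix or the outer part of membrane proteins. Secreted Mmp enzymes include collagenases, gelatinases and stromelysins, whereas membrane-type Mmp enzymes stay on the cell surface. Adam enzymes shed growth factors, receptors and adhesion molecules from the membrane, and Adamts enzymes are secreted and cut proteoglycans, procollagens and other matrix proteins. Timp proteins bind the active site of these enzymes and block it. Fibroblasts are a main source of both the enzymes and their inhibitors, and the families take part in wound repair and in the movement of mesenchymal cells. RNF20 is a subunit of the E3 ligase that attaches ubiquitin to histone H2B.

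The libraries held 20545442 to 21746898 counts. Rnf20 had 107, 107 and 106 CPM (counts scaled to a common library size, with TMM normalization) in WT and 18.7, 18.5 and 16.4 in knockout replicates 1 to 3. Knockout replicate 3 stood apart from the other knockout libraries. A chi-square statistic of the counts, which is near 1 per gene for sampling noise alone, was 92.5 and 101 per gene between it and knockout replicates 1 and 2, and 6.05 to 8.94 between the other pairs of 1 genotype. Of 8 fibroblast markers, all 8 had counts in every library, and their summed level was 24220 to 26210 CPM in WT and 22780, 29430 and 13970 CPM in knockout replicates 1 to 3. Thy1 and Pdgfra fell at an adjusted p under 0.05 in the edgeR test described below, which 33.0% of all genes passed in either direction. Lum was also below WT in every knockout library, at 77.0, 102 and 21.3 CPM against 134 to 162 CPM. It did not pass (edgeR adjusted p = 0.12). The summed level of 5 epithelial markers was 21.5 CPM in knockout replicate 3 and between 53.0 and 76.5 CPM elsewhere. Within this sum the markers differed in direction. Krt8, Krt18 and Epcam were below WT in every knockout library, with Krt8 at 18.1, 12.4 and 0.714 CPM against 28.4 to 30.3 CPM. Krt19 was above WT in each, at 43.2, 29.7 and 18.4 CPM against 12.7 to 15.4 CPM, and Cdh1 overlapped between the groups. Ddx3y, a gene of the Y chromosome, had 0 CPM in knockout replicates 1 and 3 and between 94.4 and 127 CPM elsewhere.

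Of the 62 genes, 45 passed the filter on low counts and were tested among 13386 genes, and the other 17 had at most 17 counts in any library. Each was tested with the quasi-likelihood method of edgeR, and p-values were adjusted over all genes. With the limit at 0.05, 10 of the 45 were higher in the knockout and 6 were lower, which is 22.2% and 13.3%, beside 16.4% and 16.6% of all genes tested (33.0% in either direction). The 10 include Mmp12 and Mmp10, which passed the filter on low counts only through their knockout libraries, so the filter favoured a difference in them. Both also count below among the genes with every knockout library above WT. A stricter rule asked for an adjusted p below 0.01, a change of more than 2-fold and a mean FPKM (the authors' value scaled by gene length and library size) above 1 in either genotype. By it, 4 were higher (Timp2, Timp3, Mmp13 and Mmp15) and 2 were lower (Adam33 and Adamts20), beside 1.50% and 2.08% of all genes (3.59% in either direction). Of the 45, 15 had every knockout library above every WT library and 14 had every knockout library below, beside 26.6% and 28.2% of all genes (54.8% in either direction). The median log2 fold change of the 45 was 0.09, and that of all genes tested was -0.0003. In bulk RNA, fewer cells of a type and less RNA per cell cannot be told apart. The strict counts changed with the library left out, among all genes as well. With WT replicate 1, 2 or 3 left out, 0 genes passed in either direction, where edgeR left 10, 11 and 10 higher and 7, 6 and 6 lower at an unadjusted p under 0.05. In these fits 4, 2 and 1 of all genes tested passed the strict rule. DESeq2 with all libraries called 6 higher and 2 lower by the same rule, which 982 of all genes tested passed. Without knockout replicate 1, 2 or 3 the strict rule left 2, 1 and 5 higher and 1, 1 and 2 lower, where 110, 75 and 791 of all genes tested passed it. In these fits the 0.05 limit left 11, 11 and 16 higher and 4, 5 and 12 lower, where 27.7%, 23.99% and 48.1% of all genes passed that limit in either direction.

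**Figure D1:**
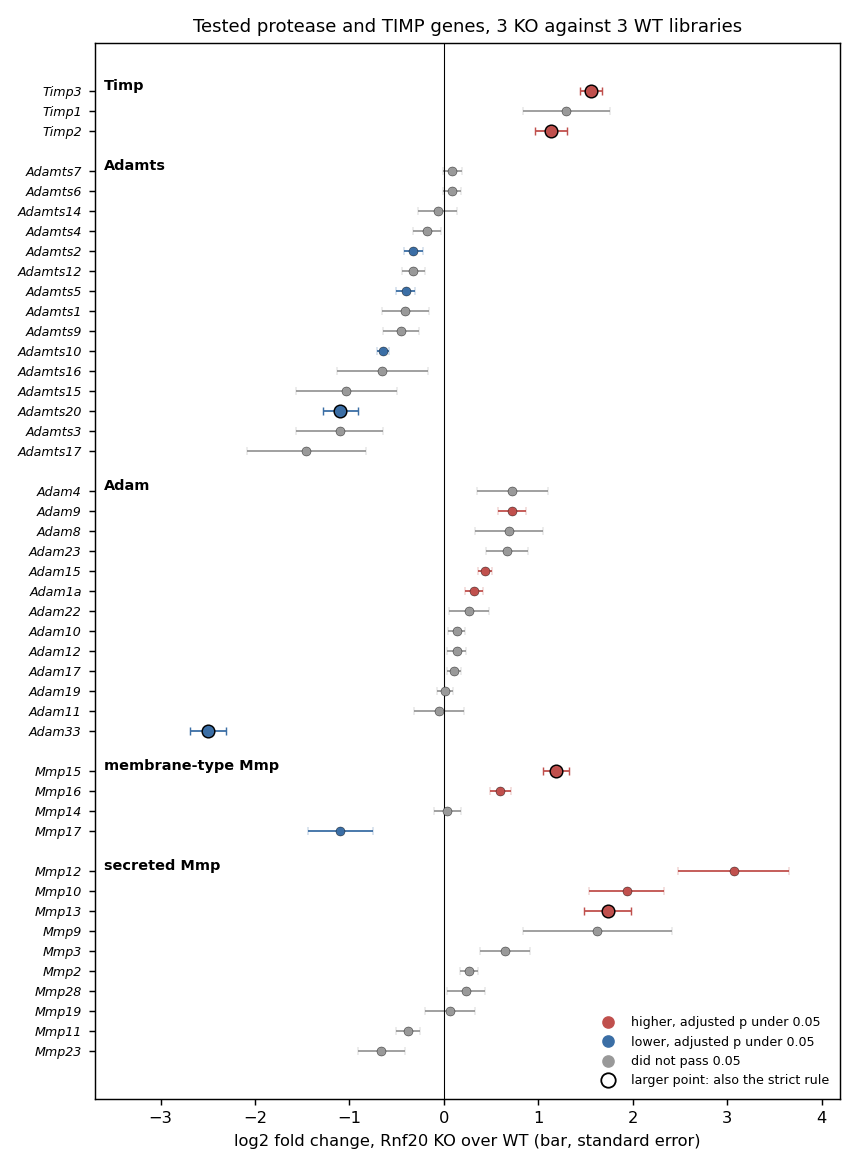
Log2 fold change of knockout over WT (x axis) for the 45 tested genes, grouped by family, with the standard error as the bar; red and blue points passed an adjusted p under 0.05 upwards and downwards, grey points did not, and larger outlined points also passed the strict rule. Adam33 lies furthest to the left at -2.49 and Mmp12 furthest to the right at 3.07, and 13 of the 15 Adamts genes lie left of 0. Mmp12 and Mmp10 passed the filter on low counts only through their knockout libraries.

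Of the inhibitors, Timp3 and Timp2 rose, 2.94-fold and 2.20-fold on the group means, and Timp1 was higher in every knockout library with an uneven spread. Timp4 had 2 counts in each WT library and 0, 1 and 3 in knockout replicates 1 to 3 and was not tested.

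Timp3, whose product is bound to the matrix and inhibits Adam and Adamts enzymes as well as Mmp enzymes, is found on chromosome 10 (GRCm38, 86300372 to 86349506, plus strand). Its levels were 513, 518 and 488 CPM in WT and 1377, 1357 and 1731 CPM in knockout replicates 1 to 3. The groups did not overlap, and the lowest knockout library was well above the highest WT library. On the log2 scale the change was 1.55 ± 0.115 (SE) with an edgeR adjusted p = 0.00178. The gene lies inside Syn3 on the opposite strand, and 1733 bases of its exons overlap exons of Syn3 in GENCODE M21. The deposited counts were not stated to use the strand. Syn3 itself had at most 0.334 CPM in any library.

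Timp2, which inhibits Mmp enzymes and also takes part in the activation of pro-Mmp2 by Mmp14, lies on the minus strand of chromosome 11 (118301069 to 118355740). It had 831, 726 and 749 CPM in WT and 1384, 1548 and 2133 CPM in knockout replicates 1 to 3. WT and knockout libraries did not overlap, with knockout replicate 3 highest. This was a log2 fold change of 1.14 ± 0.169 (SE) with an edgeR adjusted p = 0.00620, and 0.93 without knockout replicate 3.

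Timp1, a soluble inhibitor that cells make in response to serum and inflammatory signals, lies inside Syn1, on the opposite strand and with no shared exon bases, on the X chromosome (20870166 to 20874735). Syn1 had at most 5.00 CPM in any library. Timp1 had 81.3, 76.3 and 78.0 CPM in WT and 107, 116 and 356 CPM in knockout replicates 1 to 3. Knockout replicates 1 and 2 lay just above the WT libraries and knockout replicate 3 far above them. The change was 1.30 ± 0.459 (SE) and did not pass (edgeR adjusted p = 0.0692). Without knockout replicate 3 it was 0.51 with an adjusted p of 0.000111, and without knockout replicate 1 it was 1.60 with an adjusted p of 0.0397. It did not pass without WT replicate 1, 2 or 3 (edgeR adjusted p of 0.161, 0.181 and 0.179) or without knockout replicate 2 (0.0539). Knockout replicates 1 and 3 both lacked counts of Ddx3y and differed in Timp1, and the part of the sex of the cells in these levels was not tested.

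**Figure D2:**
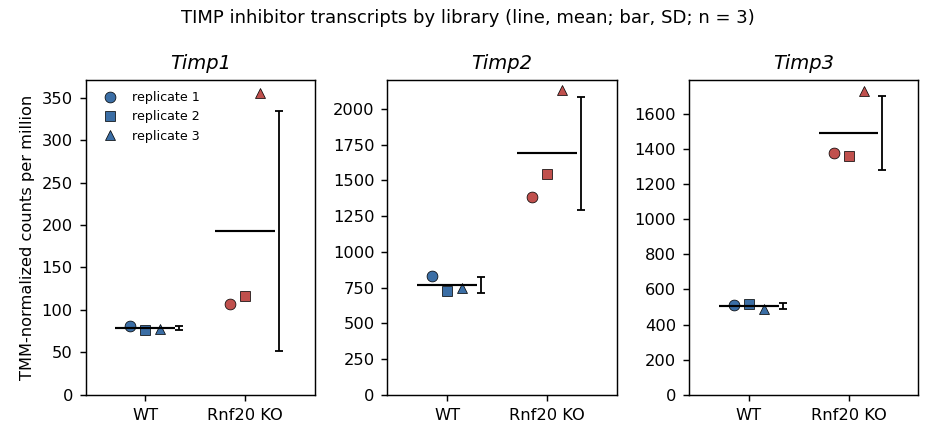
TMM-normalized CPM (y axis) of Timp1, Timp2 and Timp3 in each library, with the group mean as a line and the SD (n = 3) as a bar. In each of the 3 genes the knockout libraries lie above the WT libraries, and knockout replicate 3 is highest, at 356 CPM for Timp1, 2133 CPM for Timp2 and 1731 CPM for Timp3.

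A group of 7 Mmp genes lies within 309372 bases on chromosome 9 (7272514 to 7581885), in the order Mmp13, Mmp12, Mmp1b, Mmp3, Mmp10, Mmp8 and Mmp27. They encode collagenases, stromelysins and the macrophage elastase. In WT cells Mmp13 and Mmp3 had 305 to 393 counts in each library and the other 5 genes at most 13, and 4 of the 7 were tested. Mmp13, Mmp12 and Mmp10 rose, by 3.33-fold, 8.49-fold and 3.87-fold on the group means, and Mmp3 did not pass the test. Together the 7 genes had 716, 762 and 765 counts in WT and 1226, 2237 and 2412 counts in knockout replicates 1 to 3.

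The bases before the transcription start of the 4 tested genes of this group are shown because the genes are neighbours, had positive log2 fold changes and each have a window that holds the same motif. They are RefSeq windows on GRCm38.p6, written 5′ to 3′ on the plus strand, of up to 250 bases that end just before the start or at the first annotated exon base. Capitals mark each match to TGACTCA or its reverse complement TGAGTCA, the consensus of the transcription factor AP-1. Timp3 follows for comparison. Timp2 is not shown because its window lies inside an annotated exon of the gene.

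Mmp13, chr9:7272264-7272513: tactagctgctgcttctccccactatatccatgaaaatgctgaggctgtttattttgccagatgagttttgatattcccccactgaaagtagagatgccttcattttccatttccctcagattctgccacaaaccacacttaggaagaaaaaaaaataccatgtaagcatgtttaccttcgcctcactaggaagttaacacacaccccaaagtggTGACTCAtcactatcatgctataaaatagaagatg
Mmp3, chr9:7445572-7445821: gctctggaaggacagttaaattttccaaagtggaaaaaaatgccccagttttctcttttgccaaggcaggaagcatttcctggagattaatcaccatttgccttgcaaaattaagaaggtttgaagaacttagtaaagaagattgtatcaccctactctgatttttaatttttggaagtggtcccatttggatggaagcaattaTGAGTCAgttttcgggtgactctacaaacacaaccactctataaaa
Mmp10, chr9:7502092-7502341: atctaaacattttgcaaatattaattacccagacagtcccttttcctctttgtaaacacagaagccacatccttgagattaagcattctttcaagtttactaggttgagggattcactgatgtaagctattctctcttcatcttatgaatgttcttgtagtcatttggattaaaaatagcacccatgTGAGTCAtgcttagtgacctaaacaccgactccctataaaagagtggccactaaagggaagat
Mmp12, first start, chr9:7344147-7344380: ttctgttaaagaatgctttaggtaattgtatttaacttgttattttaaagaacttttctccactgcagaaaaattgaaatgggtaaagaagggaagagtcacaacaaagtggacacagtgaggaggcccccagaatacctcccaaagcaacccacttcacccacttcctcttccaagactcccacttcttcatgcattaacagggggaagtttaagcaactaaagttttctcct
Mmp12, second start, chr9:7347124-7347373: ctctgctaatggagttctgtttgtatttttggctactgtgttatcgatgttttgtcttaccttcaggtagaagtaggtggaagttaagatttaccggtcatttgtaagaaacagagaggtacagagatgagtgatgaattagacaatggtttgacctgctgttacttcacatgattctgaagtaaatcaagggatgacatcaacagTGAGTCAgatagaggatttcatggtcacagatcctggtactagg
Timp3, chr10:86300162-86300371: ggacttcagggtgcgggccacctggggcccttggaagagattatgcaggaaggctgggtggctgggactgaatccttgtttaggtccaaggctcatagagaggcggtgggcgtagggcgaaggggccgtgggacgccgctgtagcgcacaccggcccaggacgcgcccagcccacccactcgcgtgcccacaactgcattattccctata

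Counted from -1 at the base before the start, the AP-1 letters began at -35 in Mmp13, -46 in Mmp3, -63 in Mmp10 and -44 at the second start of Mmp12. A TATAAA on the coding strand began at -16, -7 and -29 in the first 3 of these. Windows on chromosome 18, where Adamts19 lies, were left out. Across the other 32851 mouse RefSeq windows of the 250 bases before a start, 4.46% held the AP-1 letters on either strand and 7.59% held TATAAA. RefSeq windows were matched for 39 of the 62 genes (43 windows), of which 6 held the AP-1 letters, 5 in Mmp genes and 1 in Adam19. The windows of the 4 Timp genes and of 10 Adamts genes held none. In the group on chromosome 9, the windows of Mmp8 and Mmp27 and of the first start of Mmp12 held none either, and that of Mmp1b held them at -93. The windows printed above were picked partly for holding these letters, so the share over all windows is no test of them. In the 250 bases, G and C made up 37.2% in Mmp10, 37.6% in Mmp3 and 40.4% in Mmp13, and 65.6% in Timp3. These letters are a description of the windows and no binding was measured.

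Mmp13, the main interstitial collagenase of the mouse, had 18.7, 18.6 and 18.4 CPM in WT and 38.4, 78.1 and 68.4 CPM in knockout replicates 1 to 3. The WT libraries were nearly equal, and every knockout library was far above them. On the log2 scale the change was 1.73 ± 0.250 (SE) with an edgeR adjusted p = 0.00585. It was also above 1.5 on the log2 scale with each library left out, at 1.53 to 1.99.

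Mmp12, the macrophage elastase, had 13, 6 and 11 counts in WT (0.618, 0.285 and 0.522 CPM) and 38, 70 and 146 counts in knockout replicates 1 to 3 (1.81, 3.32 and 6.95 CPM). The groups did not overlap, and the knockout libraries differed widely among themselves. This was a log2 fold change of 3.07 ± 0.589 (SE) with an edgeR adjusted p = 0.0117, and 2.42 without knockout replicate 3. Without WT replicate 2 or 3 the adjusted p was 0.0549 and 0.0571. Mmp12 and Mmp10 passed the filter on low counts only through their knockout libraries, so a difference in them was favoured by the filter. Exons of Mmp12 and Mmp1b overlap by 157 bases on opposite strands, and Mmp1b had at most 4 counts in any library.

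Macrophages are a known source of Mmp12, so their markers are given beside it. All 9 macrophage markers had counts, and 0 of the 9 passed the 0.05 limit in edgeR, beside 33.0% of all genes in either direction. In edgeR 1 had an unadjusted p under 0.05 and DESeq2 called 1 (beside 38.1% of all genes), in both cases higher. Their summed level was 29.1, 57.2 and 46.8 CPM in WT and 44.4, 34.3 and 106 CPM in knockout replicates 1 to 3. The sums of knockout replicates 1 and 2 lay within the WT range, although single markers did not. Itgam in knockout replicate 1, at 3.20 CPM against 1.04 to 1.95 CPM in WT, lay above its WT range. In knockout replicate 2, Cd68 at 5.89 CPM against 6.70 to 10.5 CPM and Tyrobp at 1.33 CPM against 1.62 to 3.845 CPM lay below theirs. In knockout replicate 3, Adgre1 was 31.9 CPM against 1.76 to 4.27 CPM elsewhere. Cd14 was 25.4 CPM there against 3.95 to 6.17 CPM elsewhere. Csf1r, Ptprc, Itgam, Tyrobp and Fcer1g were also highest in that library. Cd68 lay within the WT range there, and Mrc1 was lowest there at 1.91 CPM. The part of macrophages in the level of Mmp12 was not tested in any library. Of 5 neutrophil markers 3 were absent from the counts. The sum of the other 2 was at most 0.0475 CPM in WT and 0.0477, 0.475 and 2.90 CPM in knockout replicates 1 to 3. Of 5 endothelial markers 2 could be tested, of which 0 passed in edgeR, 0 in DESeq2 and 0 at an unadjusted p under 0.05. Of the untested ones, Pecam1 had 2, 1 and 0 counts in WT and 11, 10 and 11 in knockout replicates 1 to 3, and Cdh5 and Tie1 had overlapping groups.

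Mmp10, a stromelysin, had 5, 12 and 11 counts in WT and 30, 33 and 45 counts in knockout replicates 1 to 3. All 3 knockout libraries were above all 3 WT libraries at this low depth. The change was 1.94 ± 0.398 (SE) with an edgeR adjusted p = 0.0144, with an adjusted p of 0.0586 without WT replicate 3. Mmp3, the stromelysin next to it, had 14.5, 16.7 and 16.9 CPM in WT and 16.8, 22.6 and 35.9 CPM in knockout replicates 1 to 3, and the lowest knockout library lay inside the WT range. Its log2 fold change of 0.65 did not pass (edgeR adjusted p = 0.105), though it was 0.87 with an adjusted p of 0.0317 without knockout replicate 1. With each other library left out the edgeR adjusted p was 0.0889 to 0.251. Of the remaining members, Mmp27 had 0 counts in every WT library and 0, 9 and 15 counts in knockout replicates 1 to 3, Mmp1b had 0, 4 and 1 counts there after 0 in WT, and Mmp8 had 2, 1 and 15 after 0, 2 and 0. These 3 were too low to test.

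**Figure D3:**
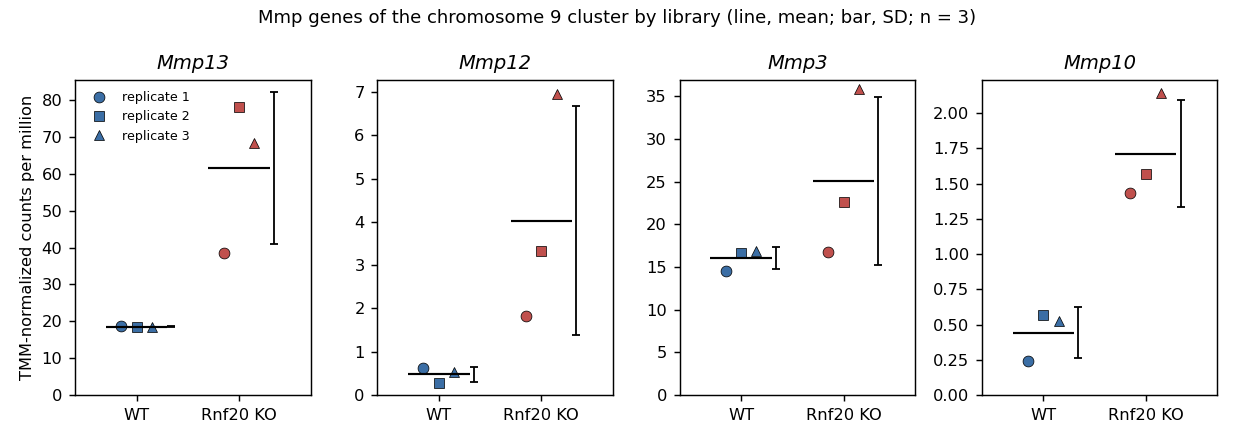
TMM-normalized CPM (y axis, a separate scale for each gene) of Mmp13, Mmp12, Mmp3 and Mmp10 in each library, with the group mean as a line and the SD (n = 3) as a bar. The knockout libraries are apart from the WT libraries in Mmp13, Mmp12 and Mmp10, and knockout replicate 1 of Mmp3 lies at the level of WT.

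None of the other secreted Mmp genes passed the 0.05 limit with all libraries. Of the 10 tested secreted genes 3 passed it, or 30%, beside 33.0% of all genes in either direction. Mmp12 and Mmp10, which the filter favoured, are among the 3. Mmp2, the gelatinase that fibroblasts make in quantity, made up 69.6% of the length-scaled level of the 14 secreted Mmp genes. It had 568, 503.5 and 566 CPM in WT and 606, 723 and 645 CPM in knockout replicates 1 to 3. WT and knockout libraries did not overlap but lay close, and the log2 fold change of 0.27 ± 0.0953 (SE) did not pass (edgeR adjusted p = 0.0695). Without knockout replicate 3 it was 0.28 with an adjusted p of 0.0149, and with DESeq2 the adjusted p was 0.0278. With each other library left out it did not pass, at edgeR adjusted p-values from 0.0613 to 0.2185.

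Mmp11, or stromelysin 3, went the other way, with 74.3, 72.6 and 76.2 CPM in WT and 57.3, 67.2 and 46.9 CPM in knockout replicates 1 to 3. Its log2 fold change was -0.38 ± 0.131 (SE) with an edgeR adjusted p = 0.0638. Leaving out knockout replicate 2 gave an adjusted p of 0.0290, and leaving out replicate 3 gave 0.0174. It did not pass without knockout replicate 1 (edgeR adjusted p = 0.122) or without a WT replicate (0.141 to 0.1695). Mmp28, or epilysin, had 49.5, 56.6 and 56.4 CPM in WT and 74.1, 73.5 and 44.0 CPM in knockout replicates 1 to 3. Knockout replicate 3 thus lay below the WT libraries and the other 2 above them, and the adjusted p was 0.386 with all libraries and 0.000634 without knockout replicate 3, where the log2 fold change was 0.45. Exons of Mmp11 overlap 155 bases of Chchd10 on the opposite strand, a gene that fell by 0.55 on the log2 scale (edgeR adjusted p = 0.0378).

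The secreted group was formed as every Mmp gene other than Mmp14, Mmp15, Mmp16, Mmp17, Mmp24 and Mmp25, and how each product is anchored was not examined. Of its remaining genes, Mmp23 had a log2 fold change of -0.66 with every knockout library below WT (edgeR adjusted p = 0.0801), and -0.97 without knockout replicate 3 (edgeR adjusted p = 0.000401). Mmp19 had 0.06 with overlapping libraries, and its sign turned without knockout replicate 3, at -0.32 (edgeR adjusted p = 0.0426). Mmp9, the second gelatinase, had 18, 10 and 14 counts in WT and 12, 22 and 96 counts in knockout replicates 1 to 3, so its log2 fold change of 1.63 rested on knockout replicate 3, without which it was 0.28 (edgeR adjusted p = 0.634). Mmp21 had 0 counts in 5 libraries and 2 in knockout replicate 3.

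Of the 6 membrane-type genes, 4 were tested. Mmp15 and Mmp16 rose, Mmp17 fell, and the dominant member, Mmp14, did not pass the test. Of all genes tested, 33.0% passed the 0.05 limit in either direction. Mmp14, which cuts collagen at the cell surface and activates pro-Mmp2, held 96.2% of the length-scaled level of the group. It had 898, 789 and 870 CPM in WT and 831, 1064 and 731 CPM in knockout replicates 1 to 3. The groups overlapped on both sides, with a log2 fold change of 0.04 ± 0.145 (SE) and an edgeR adjusted p = 0.856. The sign was negative when counts were scaled by library size only (-0.02), in limma on FPKM (-0.05), and without WT replicate 2 (-0.02) or knockout replicate 2 (-0.12).

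Mmp15 lies on the plus strand of chromosome 8 (95352268 to 95375080) and encodes the closest relative of Mmp14. It had 5.04, 5.55 and 5.22 CPM in WT and 12.2, 13.3 and 10.6 CPM in knockout replicates 1 to 3. Every knockout library held about the same level, well above the WT libraries. On the log2 scale the change was 1.19 ± 0.138 (SE) with an edgeR adjusted p = 0.00358. Scaled by length, Mmp15 was at 1.03 CPM per kilobase in WT and 2.34 in knockout cells, and Mmp14 at 126 and 130.

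Mmp16 had 21.68, 19.6 and 19.1 CPM in WT and 27.3, 30.5 and 33.6 CPM in knockout replicates 1 to 3. The groups did not overlap, with a log2 fold change of 0.60 ± 0.108 (SE) and an edgeR adjusted p = 0.00998, which was 0.0539 without WT replicate 3. Mmp17, which is anchored by a lipid, had 8.65, 11.4 and 10.3 CPM in WT and 4.63, 7.03 and 2.57 CPM in knockout replicates 1 to 3. All 3 knockout libraries were lower, with a log2 fold change of -1.10 ± 0.343 (SE) and an edgeR adjusted p = 0.0489. This call was close to the threshold. The adjusted p was 0.0953, 0.149 and 0.136 without WT replicates 1, 2 and 3 and 0.102 without knockout replicate 1. With knockout replicate 3 left out the log2 fold change came to -0.80 at an adjusted p of 0.00774. Mmp24 and Mmp25 had at most 9 counts in any library and were not tested.

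Among the 13 tested Adam genes, Adam9, Adam15 and Adam1a rose and Adam33 fell at the 0.05 limit in edgeR. The others did not pass the test. These are 23.1% and 7.69% of the 13, beside 16.4% and 16.6% of all genes. In either direction the shares were 30.8% and 33.0%. Adam33 encodes an active metalloproteinase of mesenchymal cells that is known from the genetics of asthma. It lies on the minus strand of chromosome 2 (131050591 to 131063814) and had the largest fall of the 45 genes. It had 184, 255 and 252 counts in WT and 41, 39 and 42 counts in knockout replicates 1 to 3. The 3 knockout libraries were nearly equal and lay at 17.7% of the WT mean. This was a log2 fold change of -2.49 ± 0.190 (SE) with an edgeR adjusted p = 0.00178, and -2.63 to -2.42 with each library left out. Knockout replicate 3 did not stand apart in this gene.

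The widely expressed sheddases were the most abundant of the family. Adam15, with 33.7% of the family's length-scaled level, had 191, 190 and 205 CPM in WT and 276, 268 and 250 CPM in knockout replicates 1 to 3. All knockout libraries were higher, a log2 fold change of 0.43 ± 0.0721 (SE) with an edgeR adjusted p = 0.00794. Its exons overlap those of an annotated antisense transcript. Adam9, on chromosome 8 (24949611 to 25016927, minus strand), had 148, 144 and 132 CPM in WT and 205, 207 and 287 CPM in knockout replicates 1 to 3. WT and knockout libraries did not overlap, with a log2 fold change of 0.72 ± 0.143 (SE) and an edgeR adjusted p = 0.0130. Without WT replicate 2 or 3 the adjusted p was 0.0559 and 0.0646.

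Adam10, the main sheddase of Notch receptors and cadherins, had 216, 233 and 217 CPM in WT and 258, 254 and 219 CPM in knockout replicates 1 to 3, and knockout replicate 3 lay among the WT libraries. Its log2 fold change was 0.13 ± 0.0863 (SE) with an edgeR adjusted p = 0.265, and 0.21 with an adjusted p of 0.00959 without knockout replicate 3. Adam17, the sheddase of tumour necrosis factor and of ligands of the epidermal growth factor receptor, had a log2 fold change of 0.11 (edgeR adjusted p = 0.305). Adam12 and Adam19, which fibroblasts and developing mesenchyme express, had 0.13 and 0.01. Adam8, an enzyme of myeloid cells, had 5.61, 9.02 and 7.17 CPM in WT and 11.5, 6.46 and 17.2 CPM in knockout replicates 1 to 3, with overlapping groups (edgeR adjusted p = 0.180), and its adjusted p was 0.0458 without knockout replicate 2. With each other library left out the edgeR adjusted p was 0.204 to 0.390.

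Adam11, Adam22 and Adam23 lack a working zinc site and act as binding proteins, mostly known from the nervous system. Adam23 had 19.6, 20.6 and 17.8 CPM in WT and 25.7, 23.9 and 42.6 CPM in knockout replicates 1 to 3. Its log2 fold change of 0.67 missed the threshold with all libraries (edgeR adjusted p = 0.0607) and passed it when knockout replicate 2 (0.0438) or 3 was left out (0.00991, with a log2 fold change of 0.36). Adam11 and Adam22 had overlapping groups. Adam1a, a gene known from the testis, had 29.9, 34.1 and 33.2 CPM in WT and 38.2, 38.5 and 44.5 CPM in knockout replicates 1 to 3. The groups lay apart but close, with a log2 fold change of 0.32 ± 0.0972 (SE) and an edgeR adjusted p = 0.0451, which did not pass without WT replicate 1, 2 or 3 or knockout replicate 1 or 2 (adjusted p from 0.0600 to 0.147). Its exons share 1805 bases with Mapkapk5 on the same strand, so these reads cannot be given to Adam1a with certainty. The remaining Adam genes, most of them also known from the testis, were near silent. Adam4, at 7 to 20 counts, was tested and did not pass, and Adam1b, Adam3, Adam5, Adam21, Adam28 and Adam32 had at most 17 counts in any library.

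Of the 15 Adamts genes tested, 13 had a negative log2 fold change, with a median of -0.41 beside -0.0003 for all genes tested, and 10 had every knockout library below every WT library while 0 had every knockout library above, beside 28.2% and 26.6% of all genes. With edgeR's 0.05 limit 4 fell (Adamts10, Adamts20, Adamts5 and Adamts2) and 0 rose, beside 16.6% and 16.4% of all genes, while 7 were lower and 0 higher at an unadjusted p under 0.05 and DESeq2 called 6 lower and 0 higher. The 2 genes with a positive value, Adamts6 and Adamts7, had unadjusted p-values of 0.422 and 0.3999. Without knockout replicate 3, 7 were lower and 1 was higher, Adamts7 at 0.19 with an adjusted p of 0.0194. Of all genes tested, 38.1% passed in DESeq2 and 48.1% without knockout replicate 3, in either direction.

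Of the 7 genes for enzymes that cut aggrecan and versican, 6 were tested and all 6 values were negative. Adamts1 was the most abundant Adamts transcript, with 252, 227 and 238 CPM in WT and 220, 212 and 109 CPM in knockout replicates 1 to 3. Knockout replicates 1 and 2 lay just below WT and replicate 3 far below. The change was -0.41 ± 0.251 (SE) with an edgeR adjusted p = 0.245, and -0.15 without knockout replicate 3. Adamts5, the main aggrecanase of mouse cartilage, lies beside Adamts1 on chromosome 16, the 2 genes spanning 108002 bases (85793827 to 85901828). It had 175, 199 and 184 CPM in WT and 144, 124 and 155 CPM in knockout replicates 1 to 3. The groups did not overlap, with a log2 fold change of -0.40 ± 0.10 (SE) and an edgeR adjusted p = 0.0251. That call was lost without WT replicate 1, 2 or 3 and without knockout replicate 1 or 2, at adjusted p-values from 0.0565 to 0.0927.

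Adamts20, which with Adamts9 cleaves versican during the spread of pigment cells and the closure of the palate, lies on the minus strand of chromosome 15 (94270163 to 94465418). It had 131, 183 and 159 counts in WT and 77, 67 and 76 counts in knockout replicates 1 to 3, or 6.23, 8.69 and 7.55 CPM and 3.68, 3.18 and 3.62 CPM. The knockout libraries were close to each other and lay below WT. On the log2 scale the change was -1.10 ± 0.186 (SE) with an edgeR adjusted p = 0.00837. Adamts15 and Adamts9 had -1.03 and -0.45, Adamts4 had -0.18 with overlapping groups, and none of these passed with all libraries. In Adamts15 knockout replicate 3 stood at 1.19 CPM against 5.63 and 6.93 CPM in the other 2, and without it the log2 fold change came to -0.58 at an adjusted p of 0.0157.

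The procollagen N-propeptidases trim the amino end of fibrillar procollagens so that fibrils can form. Adamts2, the main enzyme of this group, had 60.7, 52.1 and 63.5 CPM in WT and 43.4, 47.9 and 49.6 CPM in knockout replicates 1 to 3. All knockout libraries were lower, a log2 fold change of -0.32 ± 0.10 (SE) with an edgeR adjusted p = 0.0478. The adjusted p was 0.0524 to 0.156 without each library other than knockout replicate 3. Adamts3 had 13.6, 16.7 and 14.9 CPM in WT and 11.4, 7.08 and 2.52 CPM in knockout replicates 1 to 3, with a log2 fold change of -1.11 (edgeR adjusted p = 0.107). It passed without knockout replicate 1 (-1.64, edgeR adjusted p = 0.0350) and without knockout replicate 3 (-0.70, edgeR adjusted p = 0.00926). Adamts14 overlapped between the groups.

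Adamts10, which is linked to fibrillin microfibrils, lies on the plus strand of chromosome 17 (33524204 to 33553782) and fell with nearly equal knockout libraries. It had 72.6, 70.3 and 75.2 CPM in WT and 46.2, 46.7 and 46.3 CPM in knockout replicates 1 to 3, a level of 63.8% of WT. This was a log2 fold change of -0.65 ± 0.0653 (SE) with an edgeR adjusted p = 0.00301. Adamts6, its closest relative, had 0.08 with overlapping groups. Adamts17 had 11.2, 8.64 and 12.2 CPM in WT and 5.30, 5.70 and 0.667 CPM in knockout replicates 1 to 3, with a log2 fold change of -1.46 (edgeR adjusted p = 0.117), and of -0.96 with an adjusted p of 0.00139 without knockout replicate 3. Of the enzymes that cut cartilage oligomeric matrix protein, Adamts7 had 81.6, 78.3 and 82.2 CPM in WT and 90.6, 93.3 and 73.9 CPM in knockout replicates 1 to 3, and Adamts12 had a log2 fold change of -0.32 (edgeR adjusted p = 0.0767). Adamts16 had -0.65 with overlapping groups. Adamts8, Adamts13, Adamts18 and Adamts19 had at most 10 counts in any library.

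**Figure D4:**
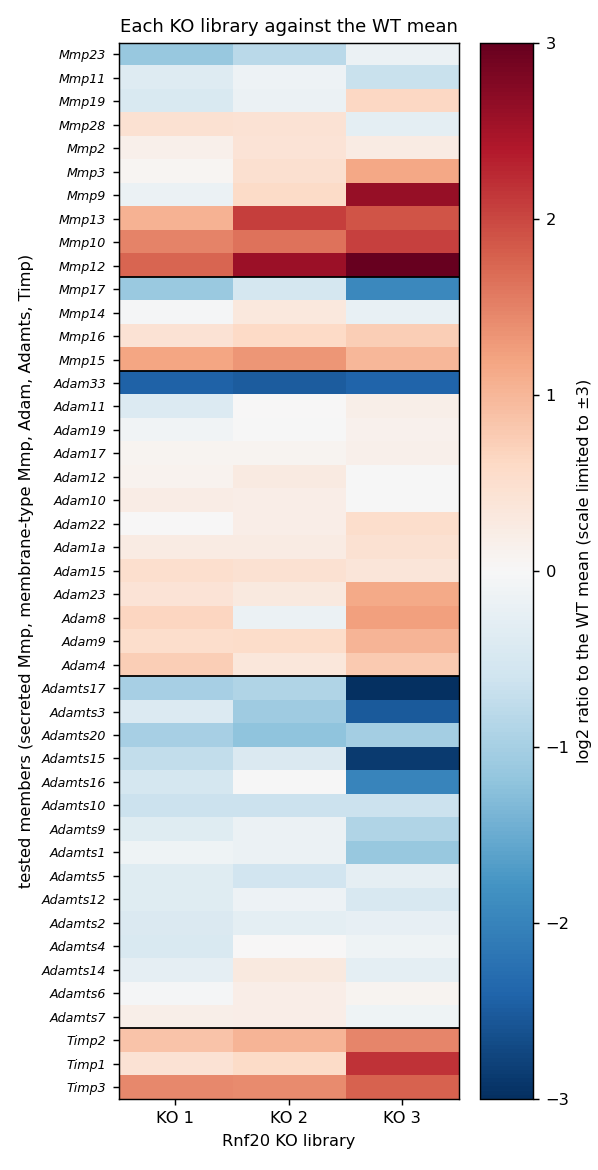
Log2 ratio of each knockout library to the WT mean (colour, computed on CPM with 0.1 CPM added) for the 45 tested genes, in rows by family. Mmp9, Timp1, Adamts15 and Adamts17 are darkest in knockout replicate 3, and Adam33, Adamts10, Mmp15 and Timp3 have similar colours in all 3 libraries.

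Of the 45 tested genes, 27 were furthest from the WT mean in knockout replicate 3, which is 60%, beside 63.1% of all genes tested. The departure of that library was thus about as common among these genes as among all genes. With knockout replicate 3 left out, 28 of the 45 passed the 0.05 limit, among them all 16 that had passed with 6 libraries, where 48.1% of all genes tested passed.

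The families were also summed per library on the length-scaled level (CPM per kilobase of the deposited gene length). The 4 Timp genes added up to 425, 392 and 393 in WT and 786, 837 and 1345 in knockout replicates 1 to 3. The 20 Mmp genes added up to 396, 363 and 397 in WT and 404, 502 and 422 in knockout replicates 1 to 3. The ratio of the Timp to the Mmp sum was 1.07, 1.08 and 0.991 in WT and 1.95, 1.67 and 3.19 in knockout cells, so each knockout library held more inhibitor relative to Mmp transcript than each WT library. The Adam genes summed to 199 to 204 in WT and 252 to 267 in knockout cells, and the Adamts genes to 135 to 141 and to 90.7 to 118. These sums rest on a few abundant genes and carry no test. Timp2, Timp3 and Timp1 made up 47.6%, 30.3% and 22.1% of the Timp sum over the 6 libraries.

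**Figure D5:**
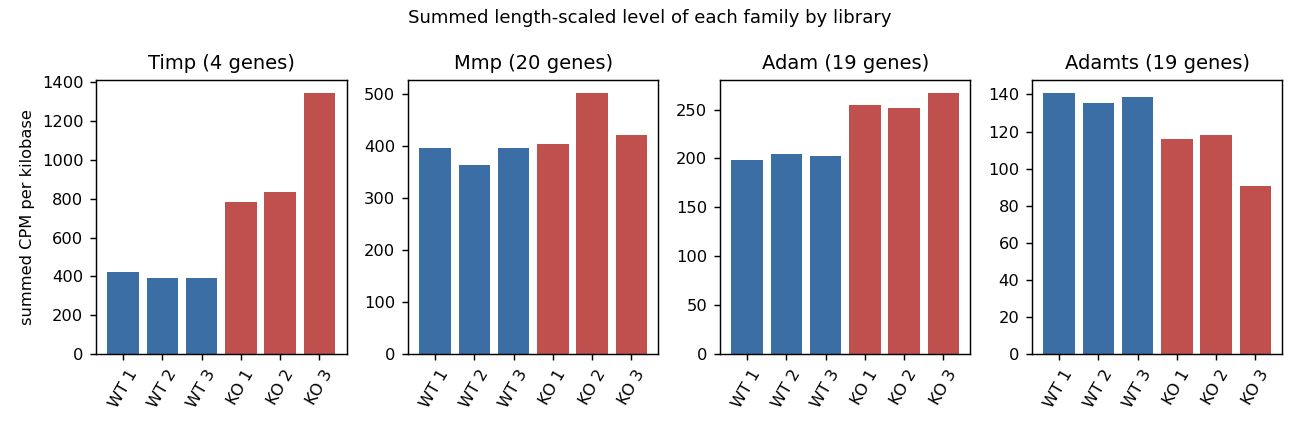
Summed CPM per kilobase (y axis, from 0, a separate scale for each panel) of the Timp, Mmp, Adam and Adamts genes in the 6 libraries, WT in blue and knockout in red. The Timp bars run from 392 to 425 in WT and from 786 to 1345 in knockout cells, and the Adamts bars from 135 to 141 and from 90.7 to 118.

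Genes that act on or beside these proteases were read from lists of known partners. In plasminogen activation, the serine protease cascade that activates several pro-Mmp enzymes, 5 of 6 tested genes rose past the 0.05 limit in edgeR and 0 fell, beside 16.4% and 16.6% of all genes. Without knockout replicate 3 all 6 rose, where 48.1% of all genes passed in either direction. In limma on FPKM 4 were higher, where 28.85% of all genes passed in either direction. DESeq2 also called 6 higher and 0 lower (beside 38.1% of all genes in either direction), as did an unadjusted p under 0.05. Plau, which encodes urokinase, had 19.3, 20.3 and 19.5 CPM in WT and 40.4, 36.1 and 37.9 CPM in knockout replicates 1 to 3, with a log2 fold change of 0.95 (edgeR adjusted p = 0.00205). Its receptor Plaur had 1.23 (edgeR adjusted p = 0.0198) and the second activator Plat had 0.40 (edgeR adjusted p = 0.0382). Serpine2, an inhibitor of the activators, had 187, 194 and 193 CPM in WT and 369, 421 and 645 CPM in knockout replicates 1 to 3 (log2 fold change 1.33, edgeR adjusted p = 0.00664). Serpinb6a also rose, with 0.60.

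Among the proprotein convertases, which cut the pro-domain of membrane-type Mmp, Adam and Adamts enzymes, 1 of 3 tested genes passed. Of all genes tested, 33.0% passed in either direction. Pcsk5 fell from 34.9, 41.2 and 39.8 CPM in WT to 18.1, 19.4 and 11.8 CPM in knockout replicates 1 to 3, with a log2 fold change of -1.23 (edgeR adjusted p = 0.00680), while Furin had -0.05 (edgeR adjusted p = 0.649). Of 5 other regulators of Mmp enzymes 1 passed, Bsg, which encodes an inducer of Mmp synthesis and had 0.81 (edgeR adjusted p = 0.0133). Reck, a membrane-anchored inhibitor, had -0.18 and overlapping groups. Of 7 tested partners of Adam enzymes, Rhbdf2, an iRhom needed for the maturation of Adam17, rose with 0.94 (edgeR adjusted p = 0.0229) and Tspan14, a tetraspanin partner of Adam10, fell with -0.55 (edgeR adjusted p = 0.0120).

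Of 13 tested ligands and receptors that Adam enzymes shed, 7 rose past the 0.05 limit in edgeR and 0 fell, beside 16.4% and 16.6% of all genes. Without knockout replicate 3 these counts were 8 and 0, where 48.1% of all genes passed in either direction. In limma on FPKM they were 6 and 0, where 28.85% of all genes passed in either direction. DESeq2 called 8 higher and 0 lower (beside 38.1% of all genes in either direction), and 8 and 0 had an unadjusted p under 0.05. Among them were 4 ligands of the epidermal growth factor receptor family. Ereg, or epiregulin, had 7.75, 6.84 and 5.69 CPM in WT and 33.9, 27.4 and 56.4 CPM in knockout replicates 1 to 3 (log2 fold change 2.54, edgeR adjusted p = 0.00357). Nrg1, or neuregulin 1, had 10.4, 9.92 and 10.2 CPM in WT and 37.3, 37.5 and 31.3 CPM in knockout replicates 1 to 3 (1.80, edgeR adjusted p = 0.00144). Hbegf had 1.03 (edgeR adjusted p = 0.00641), Areg had 1.94 (edgeR adjusted p = 0.0246), and Il6ra, Cdh2 and Cd44 had 0.90, 0.63 and 1.18. Areg had 6, 3 and 10 counts in WT and 29, 28 and 17 in knockout replicates 1 to 3 and passed the filter on low counts only through its knockout libraries, so a difference in it was favoured by the filter. Btc and Tgfa did not pass.

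Of 9 tested matrix substrates of these enzymes, 0 passed the 0.05 limit in edgeR, beside 33.0% of all genes in either direction. In DESeq2 1 was higher and 1 lower, where 38.1% of all genes passed, and an unadjusted p under 0.05 gave the same counts. Without knockout replicate 3, 3 were higher and 1 was lower, where 48.1% of all genes passed. Vcan, the versican gene, had 548, 627 and 557 CPM in WT and 777, 960 and 288 CPM in knockout replicates 1 to 3, so knockout replicate 3 lay on the other side of WT from the other 2. Of 6 Adamts-like genes, whose products lack the protease domain, Adamtsl3 and Adamtsl2 were lower and Adamtsl5 was higher (edgeR adjusted p = 0.0492), beside the same 33.0% of all genes. In limma on FPKM 1 was lower and 0 were higher, where 28.85% of all genes passed in either direction. Adamtsl2 had 11, 19 and 10 counts in WT and 2, 0 and 0 in knockout replicates 1 to 3 and passed the filter on low counts only through its WT libraries. Of 9 other matrix proteases tested, the lysosomal Ctsd, Ctsl and Ctsb rose, with 1.03, 0.86 and 0.43, and Fap, the fibroblast activation protein, fell with -1.22 (edgeR adjusted p = 0.00374). The share of all genes that passed was again 33.0% in either direction. In the Bmp1 family, Tll1 rose with 1.13 (edgeR adjusted p = 0.0218) and Bmp1 had -0.13.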

How the data were processed

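RNA-seq counts of 3 WT and 3 Rnf20-/- libraries were analysed. The authors sequenced stranded, poly(A)-selected libraries as paired ends and aligned them to GRCm38 (mm10), and the submitters' processing notes name HISAT2 2.1.0 and Cufflinks 2.1.1. The deposited counts are whole numbers per gene, and the counting program, annotation and strand setting are not given in the sources used here. The deposited FPKM values, in a table of 12633 genes, were made by the authors and were used for the limit on level and for 1 alternative. That table also holds the authors' own fold changes and FDR values, which were not used.

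Genes were tested with edgeR 4.0.16 (glmQLFit and glmQLFTest, TMM, filterByExpr, Benjamini-Hochberg adjustment over 13386 genes) in R 4.3.3. Standard errors (SE) are those of the log2 fold change. CPM uses TMM-normalized library sizes, and 3 counts are 0.142 to 0.143 CPM. Levels of different genes were compared as CPM per kilobase. Exact permutation of 3 against 3 libraries cannot go below p = 0.1 and was not used. DESeq2 1.42.0 and limma 3.58.1 gave alternatives, as did other scalings and filters, a replicate block and each library left out. Scripts were tested on simulated data. Positions are GENCODE M21, matched by identifier for 62 of 62 genes, and promoter windows are RefSeq. The genes, lists and tests were chosen with earlier results of these data known. Values in every library are given for genes that passed the 0.05 limit, the Timp genes and the 3 most abundant genes of each family, and further genes were added after their values were seen where a single library decided the value. Lists covered plasminogen activation, convertases, regulators of Mmp and Adam enzymes, shed proteins, Adamts-like genes, substrates, other proteases and cell type markers. 1 gene of the plasminogen activation list is not reported here and was left out of its counts.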

Additional observations from a re-analysis of the deposited data

How the results depend on the processing

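Timp2, Timp3, Mmp13, Mmp15, Adam15, Adam33, Adamts10 and Adamts20 kept their direction and an adjusted p under 0.05 in all 13 alternatives. Among named genes that did not pass with all libraries, Mmp11 passed in 5 of the 13, Timp1 and Mmp2 in 2, and Adam10, Adamts7 and Mmp28 in 1. Of the values of 24 named genes over these alternatives, 260 kept their direction and their side of the 0.05 limit, 36 no longer passed, 12 newly passed and 4 changed sign. All 4 sign changes were in Mmp14, at -0.024 with library size only, -0.051 with limma on log2(FPKM + 1), which was added after seeing the data, and within -0.12 to 0.15 with a library left out. With DESeq2, 10 genes rather than 6 were lower at the 0.05 limit, where 38.1% of all genes passed in either direction. With limma on FPKM, 1 rather than 2 passed the strict rule downwards, where 358 of all genes tested passed it in either direction. With the replicate number as a block, 0 passed the strict rule in either direction and 3 rather than 6 were lower at the 0.05 limit. Of all genes tested 0 passed the strict rule with the block and 21.5% passed 0.05, and among these genes edgeR gave 11 lower and 13 higher at an unadjusted p under 0.05. No label ties same-numbered libraries, and the correlations of their deviations were -0.07, 0.04 and 0.01, so the numbers were not taken as pairs. With 1 library left out, strict counts ran from 0 to 2 lower and from 0 to 5 higher, and counts at the 0.05 limit from 3 to 12 lower and from 5 to 16 higher. Of all genes tested in these fits, 1 to 791 passed the strict rule and 10.3% to 48.1% passed the 0.05 limit in either direction. The highest counts at the 0.05 limit came without knockout replicate 3 and the lowest without a WT library, and the cause was not tested. The median log2 fold change stayed between 0.06 and 0.12 with a library left out. The 17 genes that were not tested had at most 17 counts in any library.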
